A study of Mus musculus with 2 samples.

Results

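RING finger genes of the Rnf series encode ubiquitin ligases, proteins whose zinc-binding RING domain brings a ubiquitin-conjugating enzyme to a substrate. The members described here were all genes of the deposited table that are annotated as protein-coding and whose symbol is Rnf followed by a digit, with the exception of Rnf31. The rule took no expression value, and it gave 84 genes of 54532 in the table, or of 22046 protein-coding genes. Shared naming does not make these proteins close relatives, since the RING domain is the feature they have in common.

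A RING ligase holds the conjugating enzyme and the substrate together, so that ubiquitin is passed on to the substrate directly. In the RING-between-RING class the ubiquitin is first taken over by the ligase itself. Ubiquitin chains mark proteins for the proteasome or build signalling platforms, and in macrophages both uses act on the pathways below Toll-like receptors and nucleic acid sensors. Rnf138 carries a RING domain, further zinc fingers and a ubiquitin-interacting motif, and it has been described in human cells as a ligase that acts in the repair of broken DNA.

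The cells were RAW264.7, a macrophage-like mouse tumour line, in which all cultures had received lipopolysaccharide (LPS), the bacterial outer membrane component sensed by Toll-like receptor 4, at 100 ng/ml for 3 h. RNA sequencing gave 2 libraries, one for cells with the wild type label and one for cells with the RNF138 knockout label, and no other allele or agent is named in the labels. The sources used here do not state how the knockout was made, which exon it alters or whether the line is 1 clone. With 1 library per group there is no replicate spread, so no test was run, and every interval below covers counting error only. The libraries held 15573989 and 19032311 counts, and the second was 1.22 times as deep as the first. Of the 10 macrophage markers examined, 9 were measured, and the 10 summed to 3079.5 and 4313 CPM, which are counts scaled to a common library size. Mertk was the one left out, at 0 and 1 counts. Among those 9, Lyz2 was 2.55-fold higher and Adgre1 3.58-fold lower in the library labelled knockout. Markers of T cells, B cells, epithelium, fibroblasts and germ cells summed to at most 0.383 CPM, and of the endothelial markers only Pecam1 was measured, at 90 and 25 counts. The part of this shift in macrophage markers in the results on Rnf genes was not tested.

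Values are given first for the library labelled wild type and then for the library labelled knockout. Levels of different genes are compared in FPKM, which are counts divided by gene length and library depth, as deposited. Ratios put the knockout label over the wild type label and come from counts scaled by the trimmed mean of M-values (TMM), and each carries an exact 95% interval. A gene was called measured at a mean count of at least 10, and past the size rule where its levels differed by at least 2-fold and the interval excluded 1. Each library pools many cells, so a change in the share of cells holding a transcript and a change in transcript per cell cannot be told apart.

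Promoter sequence is shown here for 3 of the 5 members that passed the size rule, since these are the genes the results turn on. The windows are the 250 bases before a RefSeq transcription start on build GRCm38.p6, written 5′ to 3′ on the strand of the gene. They lie at chr13:105293015-105293264 on the minus strand for Rnf180, at chr11:119389849-119390098 on the plus strand for Rnf213 and at chr2:167492395-167492644 on the plus strand for Rnf114. Capitals mark an AP-1 element in Rnf180 and a match to the NF-kappaB consensus in Rnf213, and the Rnf114 window held none of the motifs searched.
Rnf180 promoter: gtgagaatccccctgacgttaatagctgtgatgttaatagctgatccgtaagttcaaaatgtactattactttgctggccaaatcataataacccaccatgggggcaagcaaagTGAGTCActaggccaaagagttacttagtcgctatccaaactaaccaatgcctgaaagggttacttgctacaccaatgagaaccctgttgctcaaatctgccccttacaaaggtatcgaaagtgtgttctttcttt
Rnf213 promoter: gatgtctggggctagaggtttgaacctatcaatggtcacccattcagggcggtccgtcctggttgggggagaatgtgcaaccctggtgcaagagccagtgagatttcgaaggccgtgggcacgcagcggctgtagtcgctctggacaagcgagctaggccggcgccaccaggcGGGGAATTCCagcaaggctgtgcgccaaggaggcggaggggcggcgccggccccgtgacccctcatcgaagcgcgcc
Rnf114 promoter: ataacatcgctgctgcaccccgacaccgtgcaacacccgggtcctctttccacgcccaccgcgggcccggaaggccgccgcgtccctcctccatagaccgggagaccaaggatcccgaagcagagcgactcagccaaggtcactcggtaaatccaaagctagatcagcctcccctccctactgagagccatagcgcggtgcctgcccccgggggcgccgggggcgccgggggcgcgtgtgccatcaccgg
The capitals in Rnf180 lie 136 to 130 bases before the start, and those in Rnf213 lie 77 to 68 bases before it. The Rnf114 window ends at the gene start of the deposited table, and the RefSeq start used for Rnf213 lies 3.00 kb before the table's start of that gene. The RefSeq start used for Rnf180 is 1 of 2 in the table and lies 1.801 kb inside the gene as the deposited table places it. That window was printed because it holds a motif match, so the match is not an independent find.

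The gene named in the knockout label was compared first, although its RNA level alone cannot check the label while the edit is not known. Rnf138 (ENSMUSG00000024317, chromosome 18, 21001341 to 21028223 on the plus strand, GRCm38) had 602 and 4764 counts, or 38.4 CPM (35.4 to 41.6) and 252 CPM (245 to 259). The library labelled knockout was the high one, and the intervals of the levels did not overlap. The ratio was 6.55 (6.01 to 7.14), which is 2.71 on the log2 scale. This direction is the opposite of a loss of the transcript. A count over the whole gene does not show whether an edited exon is present, so the libraries are named by their labels throughout. Whether the labels were exchanged, or whether the edit left or raised the transcript, was not tested. With exchanged labels every ratio below would turn, the 5 higher members would be 5 lower ones and Rnf138 would have the lowest ratio of the measured members.

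The size of that difference placed Rnf138 apart from its family. It had the largest ratio of the 60 measured members, and of the 10785 measured protein-coding genes 86 (0.797%) had a ratio at least as large. In FPKM it stood at 12.9 and 83.7, rank 19 of the family in the library labelled wild type and rank 2 in the library labelled knockout. Its share of all counts on members was 1.03% and 6.15%. No exon of Rnf138 overlaps another gene in GENCODE M21, and no transcript with at least 95% identity over at least 300 bases was found for it.

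Rnf138rt1, a retrogene copy of Rnf138 that encodes the most similar protein in the family, had 2 and 0 counts. The proteins were 70.5% identical over aligned residues. A floor of 3 counts corresponds to 0.192 and 0.158 CPM.

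Genes close to Rnf138 on chromosome 18 were compared to see whether the difference extended beyond it. The table holds 19 protein-coding genes within 1 Mb of it, itself included, of which 4 were measured and 11 had no count in either library. Rnf125, itself a member and a relative of Rnf138, was the nearest gene, at 17.5 kb, and had 3 and 5 counts. The nearest measured neighbour was Trappc8, which encodes a subunit of a vesicle tethering complex, at 105 kb. It had 1448 and 1577 counts, a ratio of 0.901 (0.838 to 0.968). B4galt6, a galactosyltransferase gene at 255 kb, had 521 and 464 counts, a ratio of 0.737 (0.649 to 0.837). Neither shared the direction of Rnf138. Further out on the same side lay Gm10269 at 318 kb, with 40 and 37 counts, and Ttr, the transthyretin gene, at 327 kb, with 0 and 16, both chosen for mention after their values were seen.

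On the other side of Rnf138 no gene within 1 Mb was measured. Mep1b at 44.1 kb had no count, and Garem1 at 99.0 kb had 0 and 1 counts. The nearest measured gene there was Mapre2, which encodes a microtubule end-binding protein, at 2724 kb with a ratio of 1.11 (1.03 to 1.19).

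**Figure D1:**
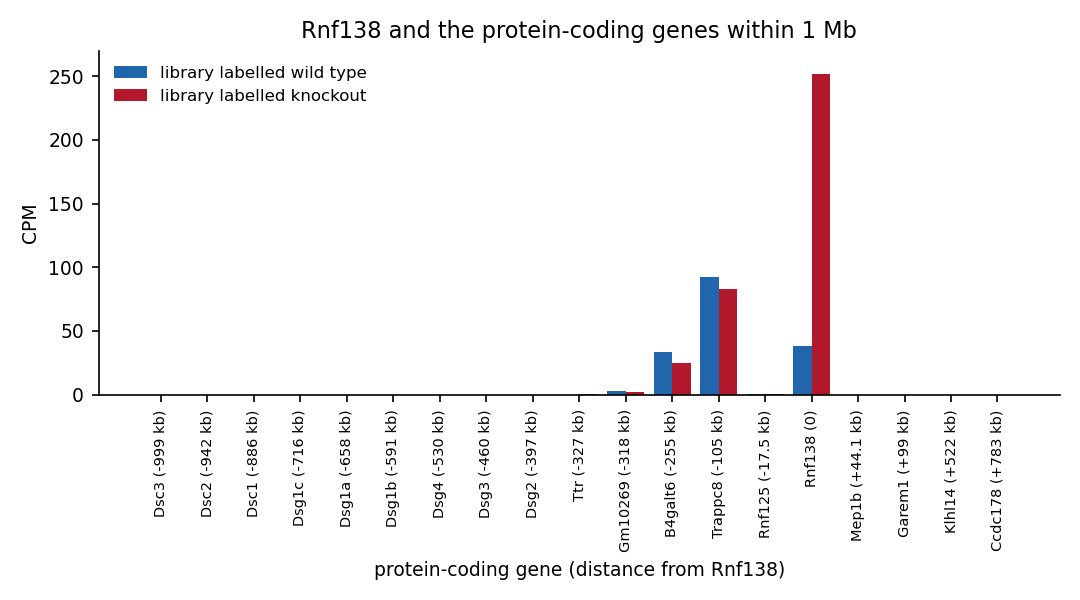
Level in CPM (bars, linear axis from 0) of Rnf138 and the 18 other protein-coding genes within 1 Mb, in order along the chromosome, with distances in kb. Rnf138 has a bar of 38.4 CPM under the wild type label and of 252 CPM under the knockout label, while Trappc8 and B4galt6 are slightly lower in the library labelled knockout.

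The relatives of Rnf138 share its arrangement of a RING domain, zinc fingers and a ubiquitin-interacting motif, and they were examined as a group of 5 with Rnf138 itself. Of these, 3 were measured, 2 were past the size rule on the higher side and 0 on the lower side, beside 5.61% and 3.21% of protein-coding genes. The other 2, Rnf125 and Rnf138rt1, were near 0 counts in both libraries. Aligned proteins of Rnf138, Rnf114, Rnf125 and Rnf166 were 34.3% to 46.9% identical, with the highest value between Rnf114 and Rnf166. The lengths were 245 residues for Rnf138, 229 for Rnf114, 233 for Rnf125 and 237 for Rnf166.

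Rnf114, an interferon-inducible ligase described in signalling below the RNA sensor RIG-I, differed in the direction of Rnf138. The gene (ENSMUSG00000006418, chromosome 2, 167492645 to 167516173, plus strand) had 570 and 1420 counts, or 11.3 and 23.1 FPKM. The library labelled knockout was again the high one, with a ratio of 2.06 (1.87 to 2.28). The lower bound of that interval lies under the 2-fold limit. Its exons share 3.84% of their bases with Spata2 on the other strand, which had a ratio of 1.07 (0.942 to 1.23).

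Rnf166, described as a ligase for adaptors of the RNA-virus response and in the autophagy of bacteria, differed in the opposite direction. It (ENSMUSG00000014470, chromosome 8, 122466147 to 122476064, minus strand) had 335 and 274 counts, or 21.4 and 14.5 CPM. The library labelled wild type was the high one, by 1.48-fold (1.26 to 1.74), which does not pass the size rule. The Rnf114 ratio was 3.04 times the Rnf166 ratio (2.52 to 3.69). The Rnf138 ratio was 3.18 times that of Rnf114 (2.79 to 3.62) and 9.67 times that of Rnf166 (8.04 to 11.6). These quotients do not depend on how the libraries were scaled.

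Across the family the difference at Rnf138 was not shared by most members. Of the 60 measured members, 5 (8.33%) passed the size rule on the higher side, and 4 of 59 (6.78%) without Rnf138. On that side 5.61% of measured protein-coding genes and 6.54% of all measured genes passed. On the lower side 0 members passed, where 3.21% of protein-coding genes and 3.62% of all genes did. Of the 55 members with a mean count of at least 100 the same 5 (9.09%) were higher and 0 lower, beside 3.21% and 1.65% of protein-coding genes with such counts. With no replicates these shares are descriptions, and how the higher share compares with its background depends on the count minimum and the fold limit. An interval wholly above 1 was found for 21 members (35%), against 32.8% of protein-coding genes, and an interval wholly below 1 for 15 (25%), against 30.8%. Ratios were above 1 in 30 members and below 1 in 30.

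The median log2 ratio of the measured members was 0.01, and -0.02 without Rnf138, beside 0.02 for all measured protein-coding genes. Within 1.5-fold in either direction lay 52 members (86.7%), beside 77.9% of protein-coding genes. Within 2-fold lay 54 (90%), beside 90.7%. Log2 FPKM of the libraries correlated over the 60 measured members with Pearson's r of 0.944, which describes genes of the same pair of libraries and not independent samples. For the 5 higher members the authors' deposited table gave log2 fold changes from 1.04 to 2.71, within 0.01 of the log2 ratios computed here.

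**Figure D2:**
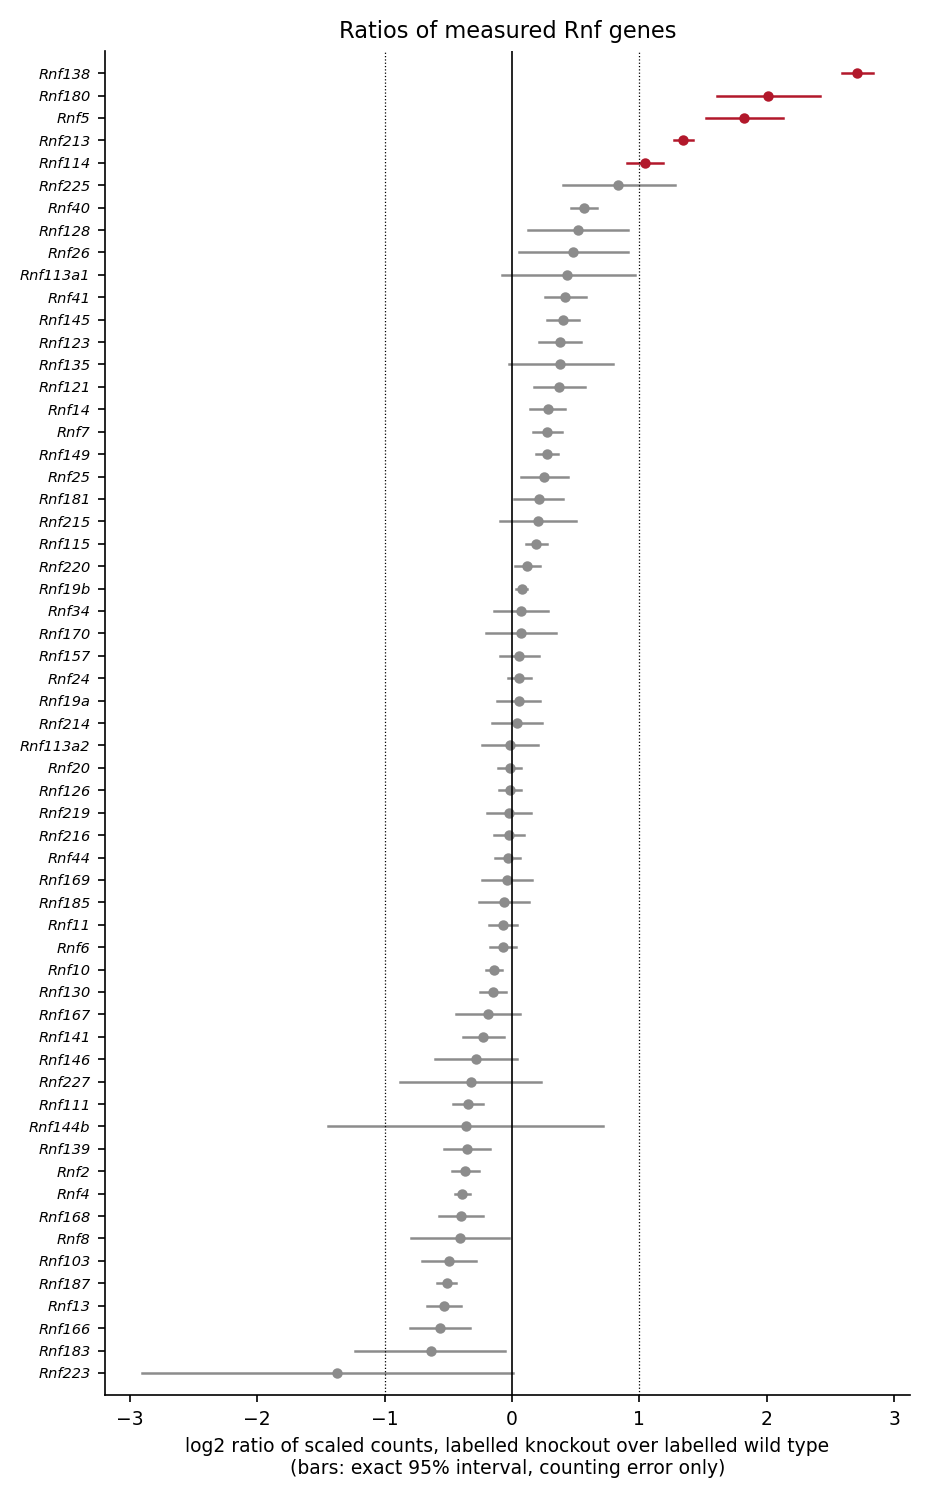
Log2 ratio of TMM-scaled counts, knockout label over wild type label, for measured members in order, with bars for the exact 95% interval (counting error only) and dotted lines at 2-fold. The 5 members past the size rule (red) run from Rnf138 at 2.71 to Rnf114 at 1.04, and the widest interval belongs to Rnf223 with 15 and 7 counts.

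Levels within the family spanned a wide range. No count was found in either library for 13 members, 13 more had a mean FPKM above 0 and under 1, 34 lay from 1 to under 10 FPKM, and 24 lay at 10 FPKM or more. The most abundant member was Rnf19b, a RING-between-RING ligase first named from natural killer cells, at 161 and 168 FPKM. Next came Rnf187, described as a coactivator of AP-1, at 113 and 78.9 FPKM. Rnf126, a cytosolic quality control ligase, stood at 77.5 and 76.0 FPKM.

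Rnf7, the RING subunit of a cullin-based ligase, stood at 54.5 and 65.7 FPKM, and Rnf130, a membrane protein of the Goliath type, at 62.7 and 56.2. Among these 5 the largest difference was that of Rnf187, with 3326 and 2815 counts and 1.43-fold (1.36 to 1.502) more in the library labelled wild type. Rnf19b had 6952 and 8856 counts, and its ratio was 1.05 (1.02 to 1.09). None of the 5 passed the size rule. Summed over all 84 members the family reached 3716 and 4091 CPM.

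**Figure D3:**
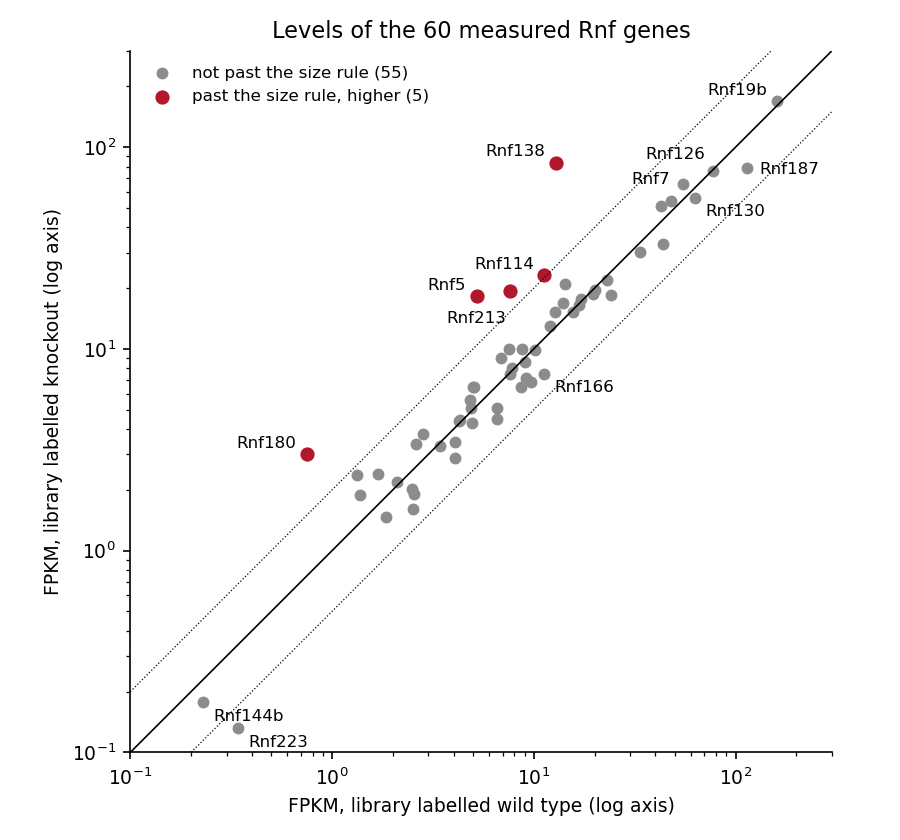
Deposited FPKM of the 60 measured members in the library labelled knockout against the library labelled wild type (both axes logarithmic), with the line of equality and dotted lines at 2-fold. Rnf138 stands at 12.9 and 83.7 FPKM, the latter near those of Rnf187 and Rnf126, while Rnf19b stays at the top in both.

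The other higher members were 2 membrane-anchored ligases, Rnf180 and Rnf5, and the cytosolic Rnf213. Rnf180, a ligase anchored in the endoplasmic reticulum membrane and described as acting on monoamine oxidase A, lies on chromosome 13 (ENSMUSG00000021720, 105130001 to 105294815, minus strand). It had 63 and 306 counts, a ratio of 4.02 (3.06 to 5.36). At 0.7504 and 3.00 FPKM it was the least abundant of the higher members, and it ranked 55 in mean FPKM. Its nearest measured neighbours, Srek1ip1 and Ipo11, had ratios of 1.06 (0.914 to 1.24) and 0.708 (0.668 to 0.7498).

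Rnf5, an endoplasmic reticulum ligase that acts on the innate immune adaptors STING and MAVS in human cells, lies on chromosome 17 (ENSMUSG00000015478, 34601091 to 34603690, minus strand). It had 116 and 495 counts, or 7.41 and 26.2 CPM, with a ratio of 3.53 (2.88 to 4.36). The library labelled knockout was the high one. Reads of Rnf5 and the antisense gene Gm20463, which shares 24.7% of its exon bases, cannot be told apart without a stated strand setting, and Gm20463 had no count in either library. Its neighbours Agpat1, at 0.572 kb, and Pbx2, at 3.69 kb, had ratios of 1.13 (1.04 to 1.23) and 1.33 (1.13 to 1.57).

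Rnf213, a very large ATPase and ligase that is induced by interferon and in human cells attaches ubiquitin to the LPS of invading bacteria, lies on chromosome 11 (ENSMUSG00000070327, 119393100 to 119487418, plus strand). It had 1944 and 5961 counts, the most of the higher members, or 7.65 and 19.3 FPKM. The ratio was 2.54 (2.41 to 2.67), wholly beyond 2-fold. Endov, which encodes an endonuclease, lies 3.93 kb away and had a ratio of 1.65 (1.38 to 1.99), and Slc26a11 on the other side had 0.898 (0.552 to 1.46). None of the measured genes next to a higher member passed the size rule.

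Just outside the rule lay Rnf225 with 65 and 140 counts, at 1.78 (1.32 to 2.43). The next was Rnf40 at 1.48. On the lower side Rnf223 was 2.59-fold lower but had 15 and 7 counts, and the interval of 0.994 to 7.51 included 1. Rnf183, a ligase linked to endoplasmic reticulum stress, had 58 and 45 counts and was 1.56-fold lower (1.04 to 2.35).

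By role, the larger groups of measured members differed little in their medians. The small Rnf138 group had a median log2 ratio of 1.04, which rests on 3 genes. Members in no role list had -0.32, also from 3 genes. In the RING-between-RING class 0 of 5 passed the size rule in either direction, beside 5.61% and 3.21% of protein-coding genes. Rnf14, described in androgen receptor signalling and in the clearance of stalled ribosomes, had 738 and 1083 counts, a ratio of 1.21 (1.105 to 1.33). Rnf216, a ligase for Toll-like receptors also known as Triad3, had 0.982 (0.905 to 1.06). Rnf19a, the closest protein to Rnf19b, had 1.04 (0.922 to 1.17), and Rnf144b had 17 and 16 counts.

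Members that act on chromatin, DNA damage or SUMO-modified proteins held 11 measured genes. Of these, 0 passed the size rule in either direction, beside 5.61% and 3.21% of protein-coding genes. The intervals of the 11 were wholly below 1 in 5 and wholly above 1 in 2, beside 30.8% and 32.8% of protein-coding genes. The median log2 ratio was -0.04. The 5 were Rnf2, Rnf4, Rnf8, Rnf111 and Rnf168. Rnf8 and Rnf168 act one after the other on histones at DNA breaks. They were 1.33-fold (1.02 to 1.73) and 1.32-fold (1.17 to 1.49) lower in the library labelled knockout. Reads of Rnf8 are uncertain, because it shares 1542 exon bases with Gm28043 on the same strand, which had 63 and 79 counts. Rnf4 and Rnf111 recognise SUMO chains and were lower by 1.31-fold (1.26 to 1.37) and 1.27-fold (1.17 to 1.38). Rnf2, the catalytic subunit of the histone ligase in Polycomb complexes, had 1495 and 1401 counts and was lower by 1.29-fold (1.198 to 1.39).

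Rnf20 and Rnf40 form one complex that attaches ubiquitin to histone H2B, and their ratios differed. Rnf20 had 1845 and 2202 counts, a ratio of 0.987 (0.928 to 1.05). Rnf40 had 1207 and 2163 counts, and its ratio was 1.48 (1.38 to 1.59). The quotient of the ratios was 1.501 (1.37 to 1.65). Rnf25, with 1.19 (1.05 to 1.35), was the other of the 2 genes with an interval above 1, and Rnf113a1, Rnf113a2 and Rnf169 had intervals that included 1.

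The membrane proteins with a protease-associated domain held 6 measured genes of 10. Of these, 0 were past the size rule in either direction, beside 5.61% and 3.21% of protein-coding genes. Rnf13, found in endosomes and lysosomes, had 992 and 827 counts and was 1.45-fold lower (1.32 to 1.59). Rnf128, known as Grail and as a brake on T cell activation, had 88 and 152 counts, a ratio of 1.43 (1.09 to 1.88). Rnf149 had 1.21 (1.14 to 1.28), while Rnf167 and Rnf215 had intervals that included 1. Reads of Rnf149 are uncertain, because it shares 24.9% of its exon bases with Gm15832 on the same strand, which had 61 and 114 counts.

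Of the 11 measured genes among the other membrane-anchored ligases, 2 were past the rule on the higher side, Rnf5 and Rnf180, and 0 on the lower side, beside 5.61% and 3.21% of protein-coding genes. Rnf145 and Rnf139 both act in sterol metabolism at the endoplasmic reticulum, and they differed in opposite directions. Rnf145 had 808 and 1288 counts, a ratio of 1.32 (1.21 to 1.44), and Rnf139 had 503 and 476, a ratio of 0.783 (0.689 to 0.889). The quotient was 1.68 (1.44 to 1.97), a pair chosen after its values were seen. Reads of Rnf139 are uncertain, because it shares 22.3% of its exon bases with Tatdn1 on the other strand, which had 223 and 347 counts. Rnf103 was 1.41-fold lower (1.22 to 1.63), Rnf121 had a ratio of 1.29 (1.13 to 1.49), and Rnf24, Rnf170 and Rnf185 had intervals that included 1.

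Of the 21 measured cytosolic and signalling members, 1 was past the rule on the higher side, Rnf213, and 0 on the lower side. The shares of protein-coding genes were 5.61% and 3.21%. The other 20 ratios lay between those of Rnf187 at 0.700 and Rnf41 at 1.34. Rnf6, Rnf10, Rnf11, Rnf34, Rnf44, Rnf115, Rnf141, Rnf146, Rnf157, Rnf181, Rnf214, Rnf219 and Rnf220 all had ratios from 0.822 to 1.16. For Rnf146, which recognises poly(ADP-ribose), 70.2% of the exon bases are shared with Echdc1 on the other strand.

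**Figure D4:**
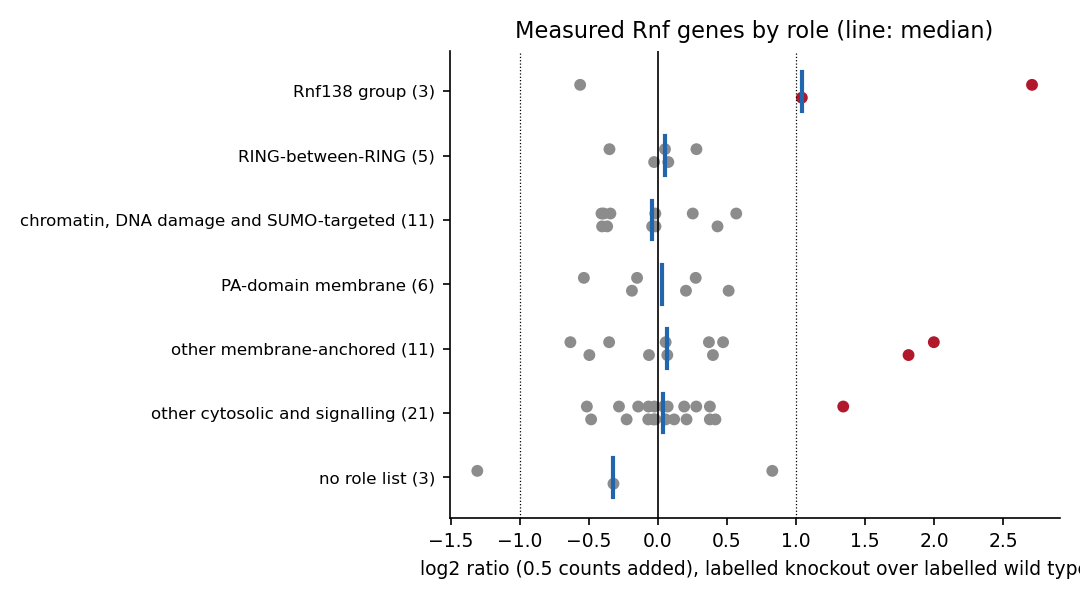
Log2 ratio (0.5 counts added) of each measured member by role group, with the number measured in brackets, members past the size rule in red, a blue line at the median and dotted lines at 2-fold. The medians of the 5 larger groups lie between -0.04 and 0.07, and the members past the rule are spread over 3 groups.

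Some members are tied to the LPS response by their known roles, and these were read as lists that cut across the role groups. The lists were chosen with earlier results of these data known, so their counts are descriptions only. Of the 5 interferon-linked members 4 were measured, 2 (Rnf114 and Rnf213) were past the rule on the higher side and 0 on the lower side, beside 5.61% and 3.21% of protein-coding genes. Rnf135, known as Riplet and needed for RIG-I activation in human cells, had 84 and 132 counts, a ratio of 1.30 (0.981 to 1.73). Rnf19b completed the list with 1.05, and its median log2 ratio was 0.71 beside 0.02 for protein-coding genes. The list is short, and it shares Rnf114 with the Rnf138 group.

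Of 15 members described as regulators of nucleic acid sensors or Toll-like receptors, 13 were measured, 2 (Rnf5 and Rnf114) passed the rule on the higher side and 0 on the lower side, beside 5.61% and 3.21% of protein-coding genes. The interval lay wholly above 1 in 7 and wholly below 1 in 0, beside 32.8% and 30.8% of protein-coding genes. The median log2 ratio was 0.38, and this list too was chosen with earlier results known. Rnf166, described above as a ligase for adaptors of the RNA-virus response, was not on it. Its ratio of 0.677 (0.575 to 0.796) had an interval wholly below 1, so the 0 below 1 holds only for the list as drawn. Apart from those past the rule, the 7 held Rnf128, Rnf26, Rnf41, Rnf123 and Rnf115. Rnf41, known as Nrdp1 and as a ligase in Toll-like receptor signalling, had 503 and 812 counts, a ratio of 1.34 (1.19 to 1.496). Rnf123 had 507 and 796, a ratio of 1.30 (1.16 to 1.45), and Rnf26, which acts on STING in human cells, had 75 and 126, a ratio of 1.39 (1.04 to 1.88).

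The remaining measured members of this list had intervals that included 1. Rnf34 had a ratio of 1.05 (0.906 to 1.22), Rnf170 of 1.05 (0.867 to 1.27) and Rnf185 of 0.957 (0.834 to 1.10). Rnf122 and Rnf125 were at 5 counts or fewer in each library. Reads of Rnf26 and Rnf170 are uncertain, because Rnf26 shares 56.6% of its exon bases with Gm49380 and Rnf170 has a pseudogene 99.7% identical over 859 bases. Rnf170-ps had 20 and 23 counts of its own. On the other strand, Rnf123 shares 13.9% of its exon bases with Gmppb, and Rnf34 shares 14.1% with Kdm2b.

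Several Rnf genes come in pairs of mutually closest proteins, and 17 such pairs with at least 30% identity were found. Both genes were measured in 9, and in 6 of these the quotient of the ratios had an interval that excluded 1. Among single protein-coding genes the interval of the ratio lay above 1 in 32.8% and below 1 in 30.8%. Pairs of unrelated genes were not examined, so the 6 are not read as a trait of close relatives. The widest quotient was that of Rnf5 and Rnf185, whose proteins were 62.2% identical over the shorter one. Rnf5 was 3.53-fold higher and Rnf185 had 397 and 459 counts, so the quotient was 3.69 (2.88 to 4.75). Rnf114 and Rnf166 followed with 3.04.

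Smaller quotients were found in other pairs. Rnf40 and Rnf20 gave 1.501, Rnf167 and Rnf13 gave 1.27 (1.05 to 1.55), and Rnf115 and Rnf126 gave 1.16 (1.06 to 1.26). The interval included 1 for Rnf19b and Rnf19a at 1.02 (0.900 to 1.15), for Rnf113a1 and Rnf113a2 at 1.37 (0.926 to 2.03), and for Rnf183 and Rnf223 at 1.66 (0.576 to 5.23). The pairs come from protein sequence alone and used no expression value, although 3 other quotients given above, on partners and on Rnf138, do not come from this search.

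**Figure D5:**
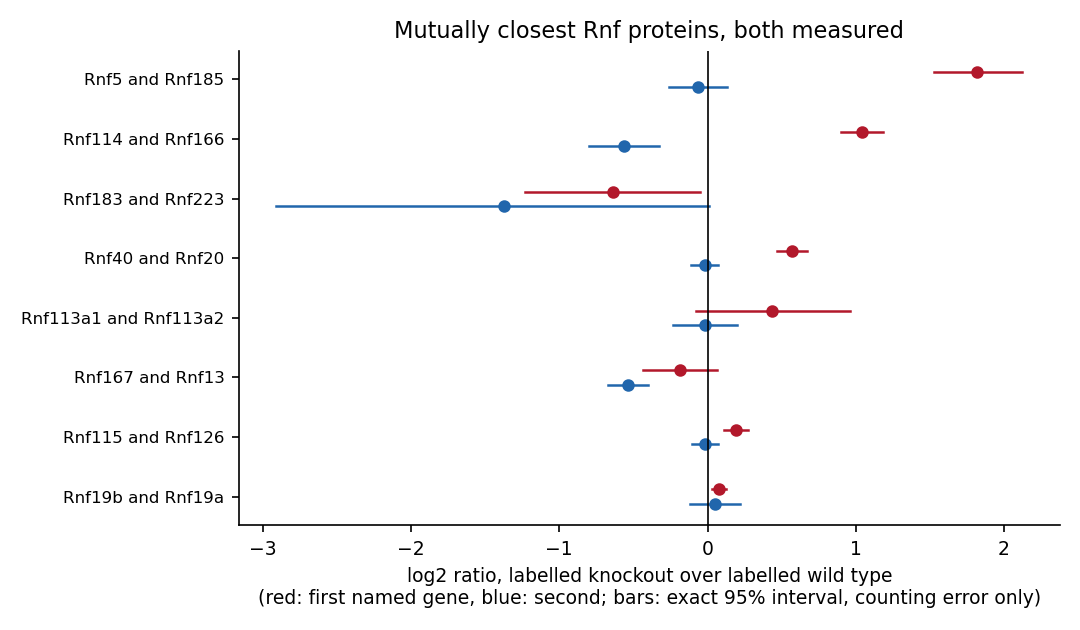
Log2 ratio of scaled counts (labelled knockout relative to wild type) of both genes of measured pairs of mutually closest proteins, with bars for the exact 95% interval (counting error only). Rnf5 (1.82) lies far from Rnf185 (-0.06) and Rnf114 (1.04) from Rnf166 (-0.56), while Rnf19b and Rnf19a lie together.

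The RING domain comes in spacings called RING-HC and RING-H2, which differ in whether a cysteine or a histidine binds zinc at one position. Translated GENCODE M21 transcripts were available for 83 members, of which 50 matched only the RING-HC spacing, 27 only RING-H2 and 6 neither. All 5 higher members were among the 34 measured RING-HC proteins, and 0 were among the 20 measured RING-H2 proteins, beside 5.61% of protein-coding genes, and no difference between the classes is drawn from counts this small. The median log2 ratios were 0.05 and -0.03. Lengths of the higher members ran from 180 residues in Rnf5 to 5152 in Rnf213, beside a median of 359 for the family.

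Promoter windows of 250 bases before to 50 bases after the RefSeq start, from the table whose sequences are printed above, were found for 65 members, 48 of them measured. The interferon-stimulated response element core GAAANNGAAA, searched on both strands, occurred in 3.99% of all genes with a window and in 4 of 65 members. Those measured were Rnf20, Rnf121 and Rnf146, and none of the 3 higher members held it. The AP-1 element TGANTCA occurred in 8.97% of all genes and in 6 of 65 members, Rnf180 among them. A match to the NF-kappaB consensus occurred in 9.55% of all genes and in 9 of 65 members, including Rnf213 and, after the start, Rnf180. A match describes letters in a window and not a bound site.

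The 24 members that were not measured included those at 0 in both libraries, which were Rnf17, Rnf43, Rnf133, Rnf144a, Rnf148, Rnf150, Rnf152, Rnf182, Rnf212, Rnf212b, Rnf217, Rnf222 and Rnf224. The other 11 had at most 7 counts in a library and were Rnf32, Rnf39, Rnf112, Rnf122, Rnf125, Rnf138rt1, Rnf151, Rnf165, Rnf186, Rnf207 and Rnf208. Of 9 members known from germ cells, such as the meiotic recombination factor Rnf212 and Rnf17 of the male germ line, only Rnf113a2 was measured, with 324 and 387 counts. Outside the role lists, the measured members were Rnf223 and Rnf225, given above, and Rnf227 with 58 and 56 counts.

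Genes linked to RNF138 in the literature, among them conjugating enzymes, substrates and Nlk, were read as a list of 11, of which 10 were measured. None passed the size rule in either direction, beside 5.61% and 3.21% of protein-coding genes on the higher and lower side. All 10 ratios were below 1, as were those of 5224 of the 10785 measured protein-coding genes. The interval was wholly below 1 in 7, beside 30.8% of protein-coding genes. This list was chosen with earlier results of these data known. The median log2 ratio was -0.28. Smarcc1, a chromatin remodelling subunit named with RNF138 in the study's title, had 3813 and 3822 counts and was 1.21-fold lower (1.15 to 1.26). Among genes of the list chosen after their values were seen, Tcf7l2, a transcription factor of the Wnt pathway, had 319 and 203 counts and was 1.90-fold lower (1.59 to 2.28), and the conjugating enzyme gene Ube2d2a was 1.40-fold lower (1.32 to 1.48). Lef1 had no count in either library.

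Partners of other members were read in the same way. Of 17 genes 16 were measured and 0 passed the size rule in either direction, beside 5.61% and 3.21% of protein-coding genes. The interval was wholly above 1 in 5 and wholly below 1 in 6, beside 32.8% and 30.8% of protein-coding genes. The median log2 ratio of the list was -0.06. Bmi1, which pairs with Rnf2 in Polycomb complexes, had 2565 and 1950 counts and a ratio of 0.629, the lowest of the list. Ring1, which can take the place of Rnf2, had 176 and 280 counts and a ratio of 1.32, the highest of the list. Bmi1 and Ring1 were chosen after their values were seen.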

How the data were processed

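The authors deposited one table for both libraries. Its raw counts per gene were made with featureCounts 1.5.0-p3, HISAT2 2.0.5 and CASAVA 1.8 on build GRCm38, per the submitters' processing notes. The sources used here state neither the strand setting nor the annotation release. The FPKM were computed by the authors from counts and gene length, and the values show a scale of 96.6% and 96.2% of the total counts. The deposited signal columns hold counts scaled between the libraries, from which the authors formed their log2 fold changes. The deposited p-values are not used, since 1 library per group gives no spread.

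Counts were scaled with TMM factors of 1.01 and 0.995 from edgeR 4.0.16 in R 4.3.3, and no edgeR or DESeq2 test was run. Intervals of ratios are exact Clopper-Pearson intervals on the paired counts, those of CPM are exact Poisson intervals, and PCR reads without molecular identifiers are not independent molecules. Log2 ratios had 0.5 counts added. Proteins were translated from GENCODE M21 and aligned globally with BLOSUM62 in biopython 1.88, copies were searched with blastn 2.17.0, and promoters are from RefSeq. The procedure was tested on simulated counts that held counting error only, so that test does not cover spread between cultures or libraries.

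The members and lists were chosen with earlier results of these data known. Named genes were the Rnf138 group, members past the size rule, the 5 most abundant members, up to 4 members of each role list, and all of the interferon and sensor lists. One member that falls under this rule is not reported here. Alternatives were other scalings, count minimums, fold limits, added counts and the deposited FPKM.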

Additional observations from a re-analysis of the deposited data

How the results depend on the processing

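The 5 higher members stayed at 5 under upper-quartile factors, DESeq2 1.42.0 size factors, total counts, no count minimum and a minimum mean count of 100. With intervals wholly beyond 2-fold they were 4 of 60, at a 1.5-fold limit 6 of 60, with Rnf225 added, and at a 4-fold limit 2 of 60. Lower members, 0 in the report, were 1 (Rnf223) under each of these other scalings, and 1 (Rnf183) at the 1.5-fold limit. The log2 ratio of Rnf138 ranged from 2.61 with the deposited FPKM plus 1 to 2.71. Of the 12668 measured genes, 828 were higher and 458 lower. These became 1634 and 1021 at 1.5-fold, 218 and 128 at 4-fold, and 353 and 185 with intervals wholly beyond 2-fold. At 1.5-fold the higher share of members lay below that of all measured genes. With a minimum mean count of 100, which fewer genes reached, the counts were 327 and 161. All other scalings of the counts moved the median of all genes by at most 0.02 on the log2 scale. The median of the members lies near 0 and took either sign under these scalings.

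Depth limits the members with few counts: the ratio intervals of Rnf223 and Rnf144b ran from 0.133 to 1.01 and from 0.368 to 1.64. No paired analysis was possible because each group has 1 library. Leaving out a library was not possible for the same reason.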
